A study of Homo sapiens with 4 samples.

Results

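The arrestins, the G protein-coupled receptor kinases and a beta-adrenergic receptor form the group of genes described here, in A549 cells given siRNA against β-arrestin-1 or control siRNA. Of 9 listed genes (ARRB1, ARRB2, ARRDC3, ARRDC4, GRK2, GRK3, GRK5, GRK6 and ADRB1), 8 had at least 1 probe set carrying their symbol in the probe-to-gene table. They were represented by 26 of the 54613 probe sets used, and none of the 26 named a second gene. The rule took probe sets by symbol, whatever their values, although the genes themselves were listed with earlier results of these data known. ARRB2, the gene of β-arrestin-2, carried no probe set in the table and was not analysed here, so whether its RNA differed with ARRB1 siRNA is not addressed.

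Receptor kinases phosphorylate an activated G protein-coupled receptor, and a β-arrestin then binds it, blocks further G protein coupling and links it to clathrin and its adaptor AP2 for internalisation. Bound β-arrestins also bring Src family and MAP kinases to receptors. In lung cancer cells β-arrestin-1 is known for joining nicotinic acetylcholine receptors to Src. The arrestin-domain proteins ARRDC3 and ARRDC4 are more distant relatives that connect membrane proteins to ubiquitin ligases.

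A549 is an established human lung adenocarcinoma line, and 1 Affymetrix U133 Plus 2.0 array was run for each of 4 conditions. These were ARRB1 siRNA with nicotine, ARRB1 siRNA serum starved, control siRNA with nicotine and control siRNA serum starved. All cells were transfected with siRNA and starved of serum for 36 h, and nicotine was given at 1 µM for 24 h. The serum starved cells are recorded with 0 h of treatment. No 24 h without nicotine is recorded for them, so nicotine and longer culture cannot be told apart. The labels call the target of the siRNA Beta arrestin, the study's methods name β-arrestin-1, and its control siRNA is non-targeting.

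There were no replicates, so no value has a replicate error and differences within a pair of arrays were not tested. Signals are linear MAS5 intensities with a trimmed mean of 500.06 to 500.07 on each array, and array medians ran from 68.6 to 73.3. A log2 difference is given with the SD of the same difference among the 1000 probe sets of most similar mean signal, which joins real changes and array noise. The word expressed is kept for the 27307 of 54613 probe sets whose mean log2 signal reached the overall median (66.3 in signal units), and the others are called dim. All 8 markers of A549 epithelium were expressed, among them KRT8 and KRT18, the simple epithelial keratins, with signals of 15600 to 32303. Of leukocyte markers 0 of 3 measured were expressed, against 1 of 3 for endothelium (PECAM1) and 2 of 4 for fibroblasts (COL1A1 and DCN).

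ARRB1, the targeted gene, was lower with its siRNA on 6 of its 7 probe sets in both the serum starved and the nicotine treated pair. The probe set with its highest mean signal, 43511_s_at, read 190.8 with ARRB1 siRNA against 352 with control siRNA in serum starved cells, and 224 with ARRB1 siRNA against 331 with control siRNA in nicotine treated cells. On 49111_at the signals were 109.8 with ARRB1 siRNA and 187 with control siRNA in serum starved cells, and 139 with ARRB1 siRNA and 234 with control siRNA in nicotine treated cells. On both probe sets each ARRB1 siRNA array lay below each control siRNA array. The log2 differences were -0.88 (SD at similar signal 0.376) and -0.56 (SD 0.407) for 43511_s_at, starved pair first, and -0.77 (SD 0.428) and -0.75 (SD 0.438) for 49111_at. ARRB1 RNA with its siRNA was thus 54.2% and 67.8% of control siRNA by the one probe set, and 58.8% and 59.4% by the other. The other expressed ARRB1 probe sets ran from 30.4% (222756_s_at, starved pair) to 108% (221861_at, nicotine pair), so the amount that remained is not settled. In RNA from whole cultures, less ARRB1 RNA in every cell and fewer cells that hold it cannot be told apart.

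The other expressed ARRB1 probe sets varied more between the pairs, or differed in direction. 222912_at had 93.8 with ARRB1 siRNA and 170.1 with control siRNA in serum starved cells, and 62.9 with ARRB1 siRNA and 162 with control siRNA in nicotine treated cells (log2 differences -0.86, SD 0.522, and -1.37, SD 0.559). 222756_s_at had 49.7 with ARRB1 siRNA and 163 with control siRNA in serum starved cells, but 94.9 with ARRB1 siRNA and 112 with control siRNA in nicotine treated cells. Its starved difference of -1.72 (SD 0.555) was the largest among expressed ARRB1 probe sets, while its nicotine difference of -0.23 (SD 0.555) was within the spread at that signal. The exception in direction was 221861_at, with 233 under ARRB1 siRNA and 224 under control siRNA in serum starved cells, and 194 under ARRB1 siRNA and 180.1 under control siRNA in nicotine treated cells. Its signals overlapped between the siRNAs, at log2 differences of 0.05 (SD 0.415) and 0.11 (SD 0.447).

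A pair of dim ARRB1 probe sets was lower as well. 218832_x_at had 4.98 with ARRB1 siRNA and 54.1 with control siRNA in serum starved cells, and 5.35 with ARRB1 siRNA and 25.4 with control siRNA in nicotine treated cells. 228444_at had 5.75 with ARRB1 siRNA and 19.9 with control siRNA in serum starved cells, and 7.75 with ARRB1 siRNA and 11.8 with control siRNA in nicotine treated cells. Both fall where signals are unsteady, since 50.0% and 52.1% of probe sets of similar signal differed by at least 2-fold in the starved pair.

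At the 2-fold limit, 1 of 5 expressed ARRB1 probe sets was lower in the starved pair (222756_s_at), where 1.06% of all expressed probe sets were, and 1 of 5 in the nicotine pair (222912_at), where 1.86% were. Both ARRB1 siRNA signals lay below both control siRNA signals on 4 of the 5, against 23.4% of all expressed probe sets. Over all 7, the median log2 difference was -0.88 in the starved pair and -0.61 in the nicotine pair. Set among the 12521 expressed genes, each at its probe set of highest mean signal, ARRB1 ranked 146 from the lowest in the starved pair and 881 in the nicotine pair, and 81 other genes were as low as ARRB1 in both.

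**Figure D1:**
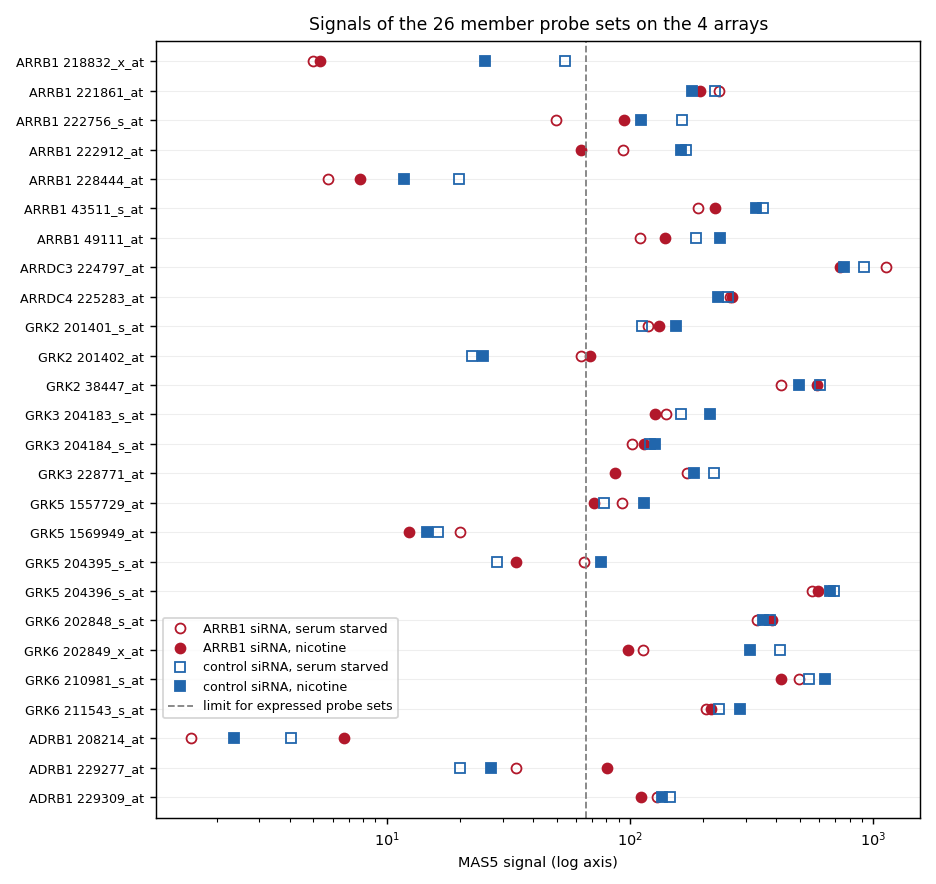
MAS5 signal (log axis) of each of the 26 probe sets in the 4 conditions, with 1 point per array, red circles for ARRB1 siRNA, blue squares for control siRNA, filled for nicotine and open for serum starved. Red points lie left of blue points on 14 of 26 rows, among them 6 of 7 for ARRB1, all 3 for GRK3 and 3 of 4 for GRK6 (113 and 98.5 against 415 and 313 on 202849_x_at), against 19.5% of all probe sets, and the dashed line at 66.3 marks the limit for expressed probe sets.

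ARRDC3 and ARRDC4, the arrestin-domain adaptors of the group, had 1 probe set each. ARRDC3 had 1126.5 with ARRB1 siRNA and 917 with control siRNA in serum starved cells, and 732 with ARRB1 siRNA and 759 with control siRNA in nicotine treated cells. Its siRNA differences of 0.30 (SD 0.314) and -0.05 (SD 0.339) had opposite signs and the signals overlapped. ARRDC4 had 259 with ARRB1 siRNA and 253 with control siRNA in serum starved cells, and 264 with ARRB1 siRNA and 231 with control siRNA in nicotine treated cells. Both of its ARRB1 siRNA signals were above both control siRNA signals, as on 22.9% of expressed probe sets, but by only 0.03 (SD 0.384) and 0.19 (SD 0.395) on the log2 scale.

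Among the receptor kinases, GRK6 held the largest siRNA difference of any expressed probe set of the 9 genes in both pairs, on 1 of its 4 probe sets. GRK6 belongs to the GRK4 subfamily, which is held at the membrane by lipid modification or by a basic helix. 202849_x_at had 113 with ARRB1 siRNA against 415 with control siRNA in serum starved cells, and 98.5 with ARRB1 siRNA against 313 with control siRNA in nicotine treated cells. That is 3.68-fold and 3.18-fold lower, or -1.88 (SD 0.424) and -1.67 (SD 0.444) on the log2 scale, and both ARRB1 siRNA arrays lay far below both control siRNA arrays. Of expressed probe sets, 79 (0.289%) were at least 2-fold lower in both pairs, and 202849_x_at was the 1 of 19 expressed member probe sets among them.

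The other 3 GRK6 probe sets, all expressed, did not share this difference. 210981_s_at had 495 with ARRB1 siRNA and 543 with control siRNA in serum starved cells, and 418 with ARRB1 siRNA and 633 with control siRNA in nicotine treated cells (-0.13, SD 0.323, and -0.60, SD 0.336). 211543_s_at had 205 with ARRB1 siRNA and 234 with control siRNA in serum starved cells, and 215 with ARRB1 siRNA and 283 with control siRNA in nicotine treated cells (-0.19, SD 0.394, and -0.40, SD 0.428). Both sat lower with ARRB1 siRNA, within the spread in the starved pair, and past it only for 210981_s_at in the nicotine pair. 202848_s_at had 332 with ARRB1 siRNA and 378 with control siRNA in serum starved cells, and 385 with ARRB1 siRNA and 354 with control siRNA in nicotine treated cells, with overlapping signals and differences of -0.18 (SD 0.367) and 0.12 (SD 0.395). The suffix _x_at marks a probe set whose probes may also bind other transcripts, and _s_at one shared by several transcripts. Of 34 genes with several expressed probe sets and at least 1 of them 2-fold lower in both pairs, 15 had another at least 1.5-fold lower in both and 19, GRK6 included, did not.

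GRK3, which with GRK2 forms the subfamily recruited to receptors by free Gβγ, was lower with ARRB1 siRNA on all 3 of its probe sets in both pairs, each time without overlap, as 23.4% of expressed probe sets were. 228771_at had 171 with ARRB1 siRNA and 222 with control siRNA in serum starved cells, and 87.0 with ARRB1 siRNA and 184 with control siRNA in nicotine treated cells. The nicotine treated ARRB1 siRNA array stood apart, with a log2 difference of -1.08 (SD 0.432) there and of -0.37 (SD 0.447) in the starved pair. 204183_s_at had 141 with ARRB1 siRNA and 162 with control siRNA in serum starved cells, and 127 with ARRB1 siRNA and 213 with control siRNA in nicotine treated cells (-0.19, SD 0.437, and -0.74, SD 0.433). 204184_s_at had 102 with ARRB1 siRNA and 121 with control siRNA in serum starved cells, and 114 with ARRB1 siRNA and 127 with control siRNA in nicotine treated cells (-0.25, SD 0.505, and -0.15, SD 0.536). The starved differences of GRK3 were all smaller than the spread at their signals, and those of 228771_at and 204183_s_at in the nicotine pair were larger.

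GRK2, the more widely studied kinase of that subfamily, gave 3 different pictures on its 3 probe sets. 38447_at had 416 with ARRB1 siRNA and 607 with control siRNA in serum starved cells, but 590.0 with ARRB1 siRNA and 497 with control siRNA in nicotine treated cells, so it was lower in the starved pair (-0.54, SD 0.321) and not in the nicotine pair (0.25, SD 0.340). 201401_s_at had 119 with ARRB1 siRNA and 113 with control siRNA in serum starved cells, and 132 with ARRB1 siRNA and 155 with control siRNA in nicotine treated cells, with overlapping signals. The dim 201402_at was the only member probe set at least 2-fold higher in both pairs, as 2.81% of all probe sets were, with 62.9 with ARRB1 siRNA and 22.4 with control siRNA in serum starved cells, and 68.5 with ARRB1 siRNA and 24.8 with control siRNA in nicotine treated cells. Those differences of 1.49 (SD 0.974) and 1.46 (SD 0.969) lie at a signal where 24.4% of probe sets differed by 2-fold in the starved pair, and neither expressed GRK2 probe set was 2-fold higher.

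GRK5, a kinase of the same subfamily as GRK6, had 1 bright and steady probe set. 204396_s_at had 563 with ARRB1 siRNA and 694 with control siRNA in serum starved cells, and 592 with ARRB1 siRNA and 664 with control siRNA in nicotine treated cells. Both ARRB1 siRNA signals were lower, by less than the spread (-0.30, SD 0.314, and -0.17, SD 0.316). The expressed 1557729_at was mixed, with 93.1 with ARRB1 siRNA and 78.6 with control siRNA in serum starved cells, and 71.0 with ARRB1 siRNA and 114 with control siRNA in nicotine treated cells. The dim 204395_s_at swung in opposite directions, with 64.9 with ARRB1 siRNA and 28.4 with control siRNA in serum starved cells, and 34.1 with ARRB1 siRNA and 76.0 with control siRNA in nicotine treated cells. The dim 1569949_at had signals of 12.4 to 20.0 on the 4 arrays and overlapped.

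ADRB1, the receptor that activates adenylyl cyclase through Gs, had 1 expressed probe set. 229309_at had 129 with ARRB1 siRNA and 147 with control siRNA in serum starved cells, and 111 with ARRB1 siRNA and 136 with control siRNA in nicotine treated cells. Both ARRB1 siRNA signals were below both control siRNA signals, as on 23.4% of expressed probe sets. The differences of -0.19 (SD 0.476) and -0.29 (SD 0.464) were smaller than the spread. The dim 229277_at went the other way, with 34.0 with ARRB1 siRNA and 20.1 with control siRNA in serum starved cells, and 80.3 with ARRB1 siRNA and 26.8 with control siRNA in nicotine treated cells. Its differences of 0.76 (SD 1.08) and 1.59 (SD 1.11) come from signals near the low end, and the third probe set, 208214_at, stayed between 1.57 and 6.69.

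Counting the partners together, 0 of the 14 expressed probe sets of genes other than ARRB1 were at least 2-fold higher with ARRB1 siRNA in the starved pair and 0 in the nicotine pair, where 1.24% and 0.996% of expressed probe sets were. At least 2-fold lower were 1 of 14 in the starved pair (GRK6 202849_x_at), where 1.06% of expressed probe sets were, and 2 of 14 in the nicotine pair (GRK6 202849_x_at and GRK3 228771_at), where 1.86% were. GRK3 228771_at came just short of 2-fold after centring and after quantile normalization, at -0.997 and -0.999. Their median log2 difference was -0.19 in the starved pair and -0.26 in the nicotine pair, against 0.0015 and -0.015 over all expressed probe sets. Of the 11 expressed receptor kinase probe sets, 7 were lower in both pairs, as were 32.6% of all expressed probe sets. Higher in both were 0 of the 11, and the matching share of all expressed probe sets was not counted. The 11 probe sets come from 4 genes and share the same 4 arrays, so they are not independent. Including dim ones, 2 of 26 member probe sets lay at least 2-fold above and 5 below control siRNA in the starved pair, against 11.9% and 9.12% of all probe sets, and 3 above and 5 below in the nicotine pair, against 10.4% and 11.7%.

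**Figure D2:**
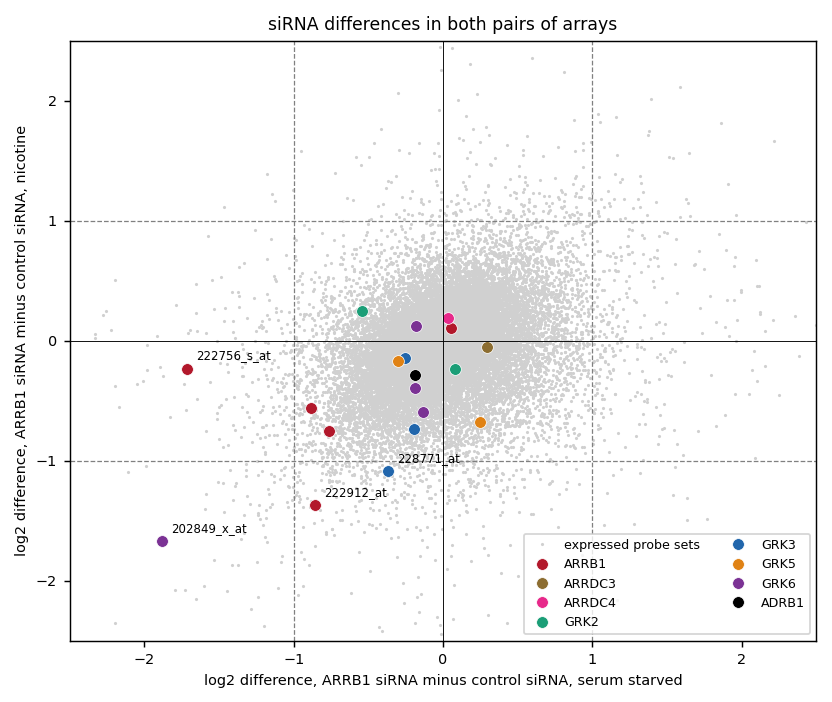
Log2 differences of ARRB1 siRNA minus control siRNA in the serum starved pair (x axis) and the nicotine treated pair (y axis), with grey points for the 27307 expressed probe sets, 32 of which lie beyond the axes, and coloured points for the 19 expressed member probe sets. No coloured point lies above the 2-fold line (dashed) on either axis, where 1.24% (starved) and 0.996% (nicotine) of all expressed probe sets do. GRK6 202849_x_at, at -1.88 and -1.67, is the one past it downward on both, as are 0.289% of all expressed probe sets. Names stand beside the coloured points past the line on either axis.

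An additive limma fit over the 4 arrays (siRNA plus nicotine, 1 residual degree of freedom, any interaction taken as error) gave an average siRNA difference for each probe set. It called 61 probe sets higher (0.112%) and 123 lower (0.225%) of 54613 at a Benjamini-Hochberg adjusted p of 0.05. Among the 26 member probe sets it called 1, GRK6 202849_x_at, which was lower by limma's fit with a log2 difference of -1.77 (SE 0.209, adjusted p = 0.0157). ARRB1 itself did not pass, with limma values of -0.72 (SE 0.187, adjusted p = 0.176) for 43511_s_at, -1.11 (SE 0.288, adjusted p = 0.176) for 222912_at and -0.76 (SE 0.226, adjusted p = 0.228) for 49111_at. Without adjustment, 8 of 26 member probe sets had a limma p under 0.05, as had 6450 of all 54613. In a limma fit of expressed probe sets only, 43511_s_at passed at the same difference of -0.72 (adjusted p = 0.0492). The GRK6 difference stayed at -1.77 but was not called when limma's variance trend and robust setting were left out (adjusted p = 0.721) or when low signals were set to a floor (adjusted p = 1), settings in which limma called 0 of all probe sets.

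With the deposited scaling, no expressed member probe set differed by 2-fold with nicotine in either siRNA background. The nearest to it upward, ARRB1 222756_s_at in ARRB1 siRNA cells, was at 0.93 and passed the limit after centring (1.003) and quantile normalization (1.02). At least 2-fold higher or lower were 0 of 19 in control siRNA cells, where 0.989% and 0.436% of expressed probe sets were, and 0 of 19 in ARRB1 siRNA cells, where 0.905% and 1.22% were. The median nicotine difference was 0.03 in ARRB1 siRNA cells and -0.09 in control siRNA cells, against -0.0034 and -0.0031 over all expressed probe sets. These comparisons use the same 4 arrays as the siRNA comparisons, so a stray value on 1 array enters both. Each also sets cells with 24 h of nicotine against cells recorded with 0 h of treatment.

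Within those limits, ARRDC3 was lower with nicotine in both backgrounds, at 732 with nicotine against 1126.5 serum starved in ARRB1 siRNA cells (-0.62, SD 0.279) and 759 with nicotine against 917 serum starved in control siRNA cells (-0.27, SD 0.217). GRK3 228771_at was lower with nicotine in ARRB1 siRNA cells, at 87.0 with nicotine against 171 serum starved (-0.98, SD 0.434), and less so in control siRNA cells, at 184 with nicotine against 222 serum starved (-0.27, SD 0.378). The brightest probe set of GRK5, 204396_s_at, hardly differed with nicotine, at 0.07 (SD 0.276) in ARRB1 siRNA cells and -0.06 (SD 0.236) in control siRNA cells. On ARRB1 itself, the nicotine difference was 0.23 (SD 0.359) in ARRB1 siRNA cells and -0.09 (SD 0.312) in control siRNA cells by 43511_s_at, and 0.34 (SD 0.426) and 0.32 (SD 0.375) in the same order by 49111_at. Over all 26 probe sets, at least 2-fold differences with nicotine were 2 higher (both ADRB1) and 0 lower in ARRB1 siRNA cells, against 10.5% and 11.0% of all probe sets. In control siRNA cells they were 1 higher (GRK5 204395_s_at) and 1 lower (ARRB1 218832_x_at), against 11.9% and 8.55%, and all of these probe sets were dim.

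**Figure D3:**
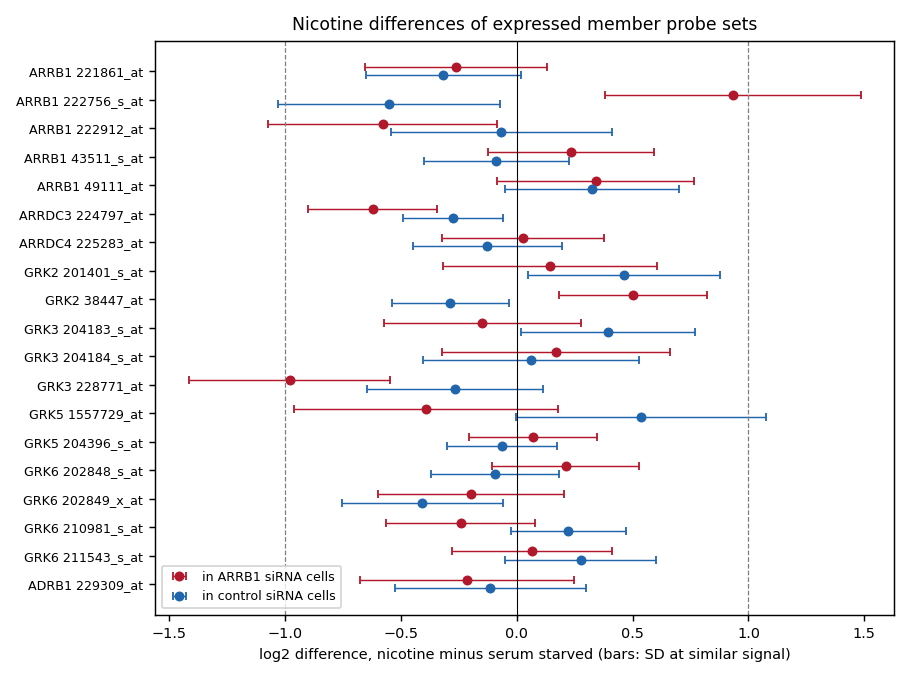
Log2 difference of nicotine minus serum starved for the 19 expressed member probe sets in ARRB1 siRNA cells (red) and control siRNA cells (blue), with bars for 1 SD among probe sets of similar signal. All points lie inside the dashed 2-fold lines, and ARRB1 222756_s_at and GRK2 38447_at are the rows whose red and blue points fall on opposite sides of 0 beyond their bars. How many of all expressed probe sets do so was not counted.

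Other genes of the family and its pathway, taken from fixed lists and read at each gene's probe set of highest mean signal, held no expressed gene with a 2-fold difference between the siRNAs in either pair, apart from the interferon-induced genes described last. Of the further arrestin family genes 4 of 5 measured were expressed, with medians of 0.15 in the starved pair and 0.06 in the nicotine pair. ARRDC1 had 839 with ARRB1 siRNA and 763 with control siRNA in serum starved cells, and 796 with ARRB1 siRNA and 792 with control siRNA in nicotine treated cells. TXNIP, a metabolic regulator with an arrestin fold, had 265 with ARRB1 siRNA and 237 with control siRNA in serum starved cells, and 249 with ARRB1 siRNA and 160 with control siRNA in nicotine treated cells (0.16, SD 0.397, and 0.64, SD 0.431). Its second expressed probe set, 201009_s_at, differed in sign between the pairs (0.59, SD 0.46, and -0.45, SD 0.457). GRK1, GRK4 and GRK7 were all dim.

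Of the clathrin partners of β-arrestins, all 14 were expressed and their medians were 0.02 and 0.13. AP2M1, the cargo-binding AP2 subunit, was 0.29 (SD 0.252) and 0.35 (SD 0.301) higher with ARRB1 siRNA. AP2A2, a large AP2 subunit, was 0.33 lower in both pairs (SD 0.236 and 0.284). CLTB, a clathrin light chain, was at -0.01 (SD 0.247) and 0.53 (SD 0.28). The 9 expressed ubiquitin ligases and deubiquitinases had medians of -0.03 and 0.03, with WWP1, a NEDD4 family ligase, at -0.29 (SD 0.243) and -0.32 (SD 0.283). Of kinases that β-arrestins scaffold, 13 were expressed, with medians of -0.07 and 0.02. SRC stood at -0.06 (SD 0.239) and -0.42 (SD 0.258), and MAPK3, the kinase ERK1, at 0.31 (SD 0.346) and 0.92 (SD 0.373). MAPK3 signals were 546 with ARRB1 siRNA and 441 with control siRNA in serum starved cells, and 434 with ARRB1 siRNA and 229 with control siRNA in nicotine treated cells.

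Downstream of the receptor, 20 of 22 measured genes of the cyclic AMP pathway were expressed, with medians of 0.03 and 0.09. ADCY7, an adenylyl cyclase, was the lowest of them, at 444 with ARRB1 siRNA against 727 with control siRNA in serum starved cells and 378 with ARRB1 siRNA against 697 with control siRNA in nicotine treated cells (-0.71, SD 0.311, and -0.88, SD 0.339, limma adjusted p = 0.0737). Of inhibitors and binders of the kinases and arrestins, 6 of 7 measured were expressed, with medians of 0.11 and 0.15. CAV1, the caveolar coat protein, was at 0.29 (SD 0.197) and 0.36 (SD 0.214). Over all 12521 expressed genes both medians were 0.02.

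Interferon-induced genes were listed because the control siRNA arrays were known to carry them at high signal. The direction and size of their siRNA differences follow in part from that choice. All 10 were lower with ARRB1 siRNA in both pairs, 9 of them at least 2-fold in the starved pair and 9 in the nicotine pair, where 98 and 175 of the 12521 expressed genes were. Their medians were -1.81 and -2.38. OAS2, an antiviral RNA sensor, had 123 with ARRB1 siRNA and 936 with control siRNA in serum starved cells, and 117.5 with ARRB1 siRNA and 1216 with control siRNA in nicotine treated cells. The part of this difference in the member values was not tested.

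**Figure D4:**
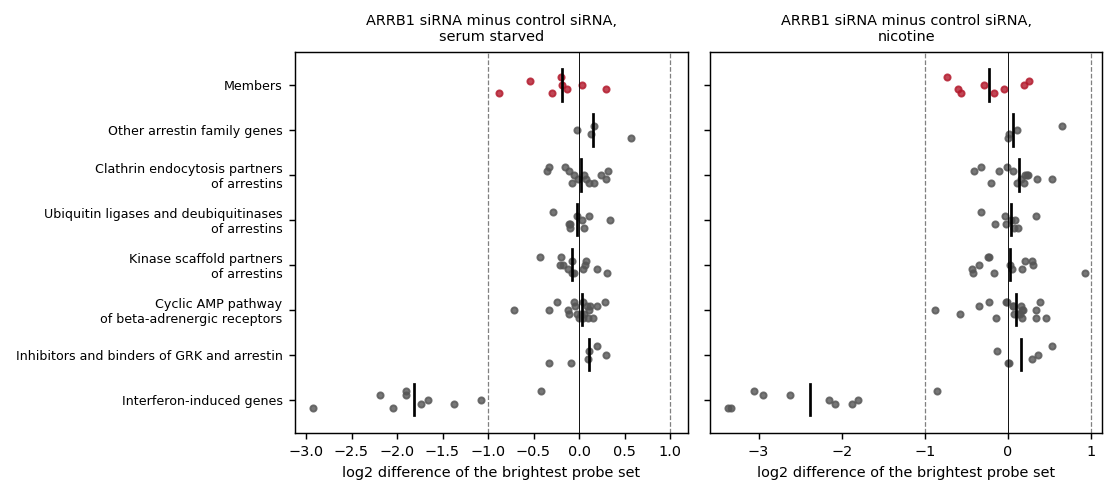
Log2 differences of ARRB1 siRNA minus control siRNA in the serum starved (left) and nicotine treated (right) pair for expressed genes of each list, with 1 point per gene at its probe set of highest mean signal, a black bar for the list median and dashed lines at 2-fold. The member genes have medians of -0.19 and -0.23, and the interferon-induced genes of -1.81 and -2.38.

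The genes whose 4 signals ran closest to those of ARRB1 43511_s_at were SLIT3, a secreted guidance ligand, CRYBG2, TRIM69, a RING-domain protein, CYFIP2, a subunit of the WAVE actin regulator, and FBN2, a microfibril protein. Likeness was measured over 4 arrays and 12521 expressed genes as the distance between centred log2 signals, which was 0.0197 for SLIT3 and 0.0850 for FBN2. SLIT3 had 134 with ARRB1 siRNA and 244 with control siRNA in serum starved cells, and 157 with ARRB1 siRNA and 233 with control siRNA in nicotine treated cells. With 4 points per gene such closeness is a description only.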

How the data were processed

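RNA of A549 cells was measured on 4 arrays, 1 per condition, and groups were taken from the sample labels. The deposited values are linear signal intensities, which the authors computed by the MAS5 algorithm (the submitters' processing notes name GCOS 1.4). They are neither log2 transformed nor centred by gene, although the study's methods mention both steps. Detection calls were not used here. Of 54675 probe sets, 62 controls were left out. By the probe-to-gene table, a total of 41091 probe sets named 1 symbol, 1801 several and 11721 none.

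Differences of log2 intensity were computed from the deposited signals in pandas 2.3.3 and numpy 2.4.6 under Python 3.11.15 without a floor, and figures were drawn with matplotlib 3.10.9. The 2-fold limit follows the submitters' notes. The additive model was fitted in limma 3.58.1 (R 4.3.3) with trend and robust moderation, and p-values were adjusted by the Benjamini-Hochberg method over all 54613 probe sets. The fit was also run on simulated data with planted siRNA differences and no interaction, where its check was on the mean estimate only. That check says nothing about the rate of false calls.

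The members and lists were chosen with earlier results of these data known. Every member probe set was named, as were up to 4 genes per list with the largest mean siRNA difference among expressed genes, not all of which are mentioned, and the 5 genes most like ARRB1. ARRDC1, GRK1, GRK4, GRK7, the second TXNIP probe set and the marker genes were added to these. As alternatives, arrays were median-centred or quantile normalized, signals were raised to a floor at the 25th percentile (a signal of 16.5), and other settings were a 1.5-fold limit, expressed probe sets only, leaving out _x_at and _s_at probe sets, and a fit without trend and robust settings. The arrays' number limits the precision.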

Additional observations from a re-analysis of the deposited data

Results flagged for a closer look

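On 2 expressed member probe sets nicotine went with opposite differences in the 2 siRNA backgrounds, each larger than the SD at similar signal. ARRB1 222756_s_at had a nicotine difference of 0.93 (94.9 with nicotine, 49.7 serum starved) in ARRB1 siRNA cells and of -0.55 (112 with nicotine, 163 serum starved) in control siRNA cells. GRK2 38447_at had a nicotine difference of 0.50 (590.0 with nicotine, 416 serum starved) in ARRB1 siRNA cells and of -0.29 (497 with nicotine, 607 serum starved) in control siRNA cells. With 1 array per condition the difference between backgrounds was not tested for either. The share of all expressed probe sets with such an opposite pair was not counted, so how common it is remains unknown. No second probe set of ARRB1 or GRK2 that is expressed showed the same opposite pair beyond that spread.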

How the results depend on the processing

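No paired analysis was possible because each condition has 1 array and no replicate number to pair on; the additive fit compares the siRNAs within each treatment. All 104 log2 differences of the 26 member probe sets kept their value within the SD at similar signal under quantile normalization, as did 101 with the floor on low signals. All 104 did so under centring too, but that was fixed in advance. Centring shifts every difference of a comparison by the same amount, which was smaller than each of these SDs. The floor moved ARRB1 218832_x_at to -1.71 in the starved pair and -0.62 in the nicotine pair, and the nicotine difference of ADRB1 208214_at in ARRB1 siRNA cells to 0.00.

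Counts of members past 2-fold rested mainly on dim probe sets, apart from the count of those lower in the nicotine siRNA pair. In the starved siRNA pair, 2 higher became 0 among expressed probe sets and 1 without _x_at and _s_at probe sets, and 5 lower became 3 with the floor, 8 at 1.5-fold, 2 among expressed ones and 2 without _x_at and _s_at. In the nicotine siRNA pair, 3 higher became 2 with the floor and 0 among expressed ones. Of those lower there, 5 became 4 with centring, with quantile normalization and with the floor. The 5 became 10 at 1.5-fold, 3 among expressed ones and 2 without _x_at and _s_at. For nicotine in ARRB1 siRNA cells, 2 higher became 3 with centring and with quantile normalization, 1 with the floor and 0 among expressed ones. There 0 lower became 4 at 1.5-fold. For nicotine in control siRNA cells, 1 higher became 0 among expressed ones and 0 without _x_at and _s_at, and 1 lower became 3 at 1.5-fold, 0 among expressed ones and 0 without _x_at and _s_at. Of all probe sets, 15.4% were at least 1.5-fold lower in the starved siRNA pair and 20.0% in the nicotine siRNA pair. With nicotine, 18.2% were at least 1.5-fold lower in ARRB1 siRNA cells and 13.6% in control siRNA cells. Shares of all probe sets are not given for the floor or for leaving out _x_at and _s_at, so those member counts stand without a comparison.

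The limma calls varied most. Of members, 1 lower became 0 with the floor, 2 of 19 in a fit of expressed probe sets only and 0 without trend and robust settings. Of all probe sets, 123 lower became 231 with centring, 0 with the floor, 646 in the fit of expressed ones and 0 without trend and robust settings, and 61 higher became 134, 0, 526 and 0 in the same order. The counts of 646 and 526 are out of the 27307 expressed probe sets. By limma, GRK6 202849_x_at had adjusted p from 5.14e-05 (centred) to 1 (floor), and ARRB1 43511_s_at from 0.0492 (expressed only) to 1 (floor). The causes were not tested. Without replicate arrays, array noise was not measured, and neither differences below nor those above the SD at similar signal are separated from it.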

Other observations

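Antisense transcripts named after members were chosen after their values were seen. ARRDC3-AS1 (239395_at, expressed) had 125 with ARRB1 siRNA and 52.9 with control siRNA in nicotine treated cells, but 91.8 with ARRB1 siRNA and 92.7 with control siRNA in serum starved cells. The log2 differences were 1.24 (SD 0.59) and -0.01 in that order, and only the nicotine treated control siRNA array was low. ARRDC3 itself differed by -0.05 in the nicotine treated pair. GRK3-AS1 was dim, with 7.35 with ARRB1 siRNA and 12.7 with control siRNA in nicotine treated cells, and 0.80 with ARRB1 siRNA and 19.7 with control siRNA in serum starved cells (-0.79, SD 1.75, and -4.61, SD 1.57).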
